A study of Homo sapiens with 12 samples.

Results

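The RNA recovered with Clover, the control bait of a PAR-CLIP experiment, in which a photoreactive nucleoside in RNA is crosslinked to bound protein and the protein is then immunoprecipitated, was described here for repeat sequences alone. Clover is a green fluorescent protein, and its libraries hold the RNA that came through the procedure with this control bait. The members were the 3 Clover libraries of the 12 in the series, chosen by their label, and every repeat listed in them was used. No construct of the RNA surveillance factor ZC3H18 was compared with them.

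The cells were A375, an established human melanoma line. V5-tagged Clover was expressed from pcDNA3.2 by transient transfection, the cells were given 4-thiouridine (4sU) 24 hours later and were exposed to UV light, and the protein was pulled down with anti-V5 antibody. All 3 libraries were ribosomal RNA depleted, strand-specific and otherwise alike in their labels, which number them as replicates 1, 2 and 3 without saying whether they came from separate cultures, so the spread between them may be technical. Transient transfection leaves the bait at a level set by the plasmid, and no untransfected or input library was used here.

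Repeats cover much of the human genome. LINE elements such as L1 and endogenous retroviruses, which keep long terminal repeats (LTRs), carry their own promoters. SINEs are short, and Alu, the commonest of them in primates, descends from the 7SL RNA gene. Most copies are old, carry many mismatches from their family consensus and lie in introns, untranslated regions or between genes, where they are read as passengers of other transcripts. Repeat annotation also lists gene copies of small structured RNAs, among them 7SL (the scaffold of the signal recognition particle), 7SK (which holds the elongation factor P-TEFb inactive) and the spliceosomal U RNAs. A passenger copy can be read from either strand. A transcript begun at the element's sense promoter is read from its own strand, but L1 also has an antisense promoter and LTRs can start transcription both ways, so the strand of a read does not show where its transcript began.

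The libraries had 16683132, 17104349 and 17673644 aligned fragments in replicates 1 to 3. Repeats took 9.03%, 8.24% and 8.15% of them, summed over both strands. With 95% Wilson intervals of 9.01 to 9.04% in replicate 1 and 8.23 to 8.26% in replicate 2, counting error was far below the difference between libraries, and such intervals cover counting error only. Reads on an element's own strand made up 69.0%, 68.9% and 69.3% of the repeat counts. Uniquely mapping reads made up 69.0%, 65.1% and 62.7%, the rest being shared among copies by expectation maximization. Levels below are expected counts per 1000000 aligned fragments (CPM) on the element's own strand unless another strand is named. They are given in the order of replicates 1, 2 and 3, or as mean ± SD over n = 3.

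The cell type was checked through repeats inside marker genes, since no other gene counts were used, so a marker without a listed repeat could not be checked. Repeats in AXL, a receptor tyrosine kinase marking dedifferentiated melanoma, stood at 191, 184 and 183 CPM. Those in EGFR stood at 17.6, 19.8 and 17.7 CPM and those in NGFR, another marker of that state, at 1.20, 0.819 and 0.509 CPM. Of the 7 melanocyte lineage genes, SOX10 had 4.56, 4.50 and 3.51 CPM and MITF had 1.26, 1.75 and 2.04 CPM. MLANA, TYR and DCT were each at or below 0.180 CPM in every library, and no repeat was listed in PMEL or TYRP1. The keratinocyte genes KRT5 and KRT14 had no listed repeat, and the lymphocyte gene PTPRC and the fibroblast genes COL1A1 and COL3A1 were each at or below 0.292 CPM.

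Gene copies of structured RNAs held the highest elements of all, and 7SL led them. The RN7SL1 element stood at 6662, 5369 and 5914 CPM and the RN7SL2 element at 5515, 4884 and 5506 CPM. A further gene, RN7SL3, stood at 939, 727 and 891 CPM. Per kilobase, a scale on which elements of different length can be set side by side, RN7SL1 averaged 19938 CPM, RN7SL2 17672 CPM and RN7SL3 2842 CPM. The ranges of RN7SL1 and RN7SL2 over the libraries overlapped, and RN7SL3 lay below both in every library. Uniquely mapping reads were 59.7% of the counts at RN7SL1, 48.7% at RN7SL2 and 81.1% at RN7SL3. All 178 listed 7SL copies summed to 13216, 11075 and 12426 CPM, a coefficient of variation of 8.85%.

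The 7SK gene, RN7SK (chr6:52995620-52995951, plus strand), stood at 5039, 4805 and 4008 CPM, or 13908 CPM per kilobase on average. Its 5′ 300 of 332 bases on hg38 are shown, in lower case throughout since no copy is compared, because this is the element with the highest level outside 7SL.

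RN7SK: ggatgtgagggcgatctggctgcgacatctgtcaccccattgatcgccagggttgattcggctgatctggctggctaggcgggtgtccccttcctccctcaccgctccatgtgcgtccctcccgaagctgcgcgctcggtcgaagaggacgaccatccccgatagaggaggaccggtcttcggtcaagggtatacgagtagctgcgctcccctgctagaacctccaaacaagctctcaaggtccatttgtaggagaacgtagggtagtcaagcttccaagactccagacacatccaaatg

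Replicate 3 was the lowest of the libraries at RN7SK, whereas replicate 2 was the lowest at each 7SL gene. The pseudogene RN7SKP203 (chr2:76445170-76445410, minus strand) had 125, 151 and 134 CPM, of which 2.25% were unique. Together the elements of RN7SL1, RN7SL2 and RN7SK held 27.6%, 26.5% and 27.3% of all own-strand repeat counts. The 10 highest elements held 31.5%, 31.1% and 32.1%.

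Spliceosomal and nucleolar RNAs made up the next group of RNA genes, listed together as snRNA in the annotation. U1, which pairs with the 5′ splice site, summed to 539, 677 and 462 CPM over 39 listed copies, and U2, which pairs with the branch point, to 158, 183 and 176 CPM. U4 stood at 73.6, 89.8 and 84.6 CPM. Its partner U6 had 3.90, 2.86 and 2.49 CPM over 66 copies, and U5 had 0.779, 1.34 and 1.53 CPM. The nucleolar U17 (SNORA73) had 474, 539 and 544 CPM from 2 genes, and U3, which acts in ribosomal RNA processing, had 197, 292 and 225 CPM. The U17 pair is shown because its members, unlike the U1 copies below, were partly told apart, with 25.6% and 40.7% unique reads.

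SNORA73A (chr1:28507365-28507571, plus strand): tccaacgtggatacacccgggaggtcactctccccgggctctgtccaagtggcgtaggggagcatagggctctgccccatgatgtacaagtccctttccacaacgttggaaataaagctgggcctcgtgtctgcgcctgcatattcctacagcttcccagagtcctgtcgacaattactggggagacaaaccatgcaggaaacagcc

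SNORA73B (chr1:28508558-28508759, plus strand): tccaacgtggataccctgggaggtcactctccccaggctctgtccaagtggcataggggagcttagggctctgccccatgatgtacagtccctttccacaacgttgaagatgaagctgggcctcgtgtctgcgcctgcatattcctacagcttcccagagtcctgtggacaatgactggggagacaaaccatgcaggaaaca

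SNORA73A had 261, 292 and 319 CPM and SNORA73B 213, 248 and 226 CPM. Per kilobase these are means of 1403 and 1133 CPM, and the ranges did not overlap. The order turned with uniquely mapping reads, which were 1238, 1381 and 1208 at SNORA73A and 1650, 1705 and 1434 at SNORA73B. Because SNORA73A lies in an exon of SNHG3 on the same strand, its reads and those of the host transcript were not separated.

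Copies of Y RNAs and transfer RNAs had low levels. The Y RNAs, partners of the Ro protein, summed to 4.82, 4.68 and 6.22 CPM over 75 copies. Transfer RNA copies summed to 10.0, 10.0 and 10.6 CPM, of which 20.8% ± 5.83 was unique. Ribosomal RNA had the largest coefficient of variation of the 12 classes, 64.7%, with 386, 159.9 and 120.2 CPM. Replicate 1 was the high one for the large subunit RNA (291, 96.4 and 74.9 CPM) and for the small subunit RNA (94.5, 63.4 and 44.9 CPM).

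Nearly all counts at 7SL and the snRNA class were on the gene's own strand. The own-strand share of 7SL counts was 98.8%, 98.5% and 98.7%. For the snRNA class the own-strand share was 99.5%, 99.6% and 99.5%. Opposite-strand reads were unevenly placed. They were 2.15%, 2.82% and 2.46% at the RN7SL1 element and 2.68%, 3.04% and 3.21% at RN7SK, but 0.0474%, 0.0719% and 0.0554% at RN7SL2. U17 had 0 opposite-strand counts in each library, which allows up to 3. With values this far apart between genes of the same libraries, no single opposite-strand share stands for a whole library.

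**Figure D1:**
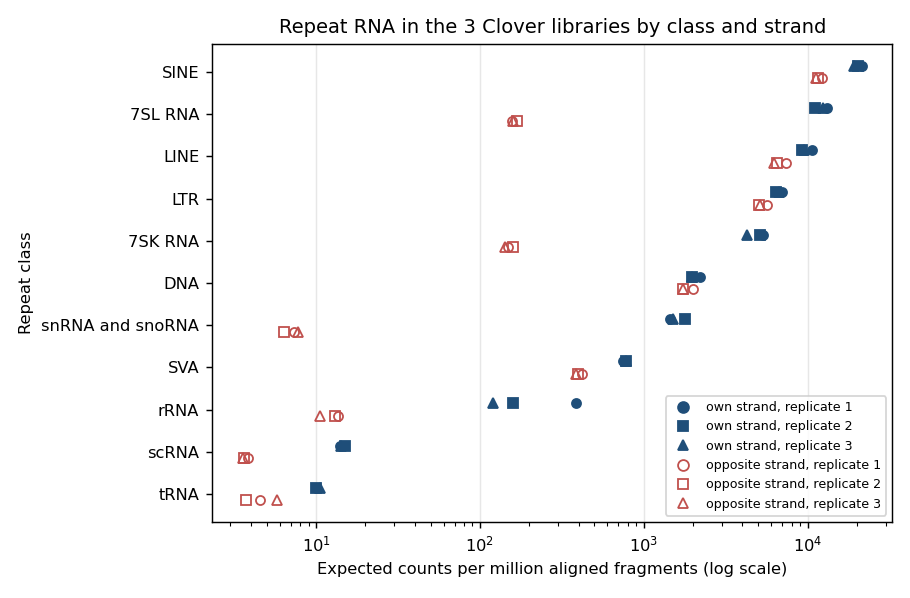
Expected counts per 1000000 aligned fragments (log scale) for each repeat class in the 3 Clover libraries, with filled blue symbols for the element's own strand, open red symbols for the opposite strand, and a symbol shape per replicate. SINE, LINE, LTR and DNA elements have 1725 CPM or more on the opposite strand, while 7SL stands at 11075 CPM or more on its own strand and at 168 CPM or less on the other.

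The mobile classes were read in the same order in every library. SINEs had 21322, 20279 and 19191 CPM, LINEs 10689, 9239 and 9532 CPM, LTR elements 6956, 6377 and 6652 CPM, DNA transposons 2191, 1970 and 1968 CPM, and SVA, a composite element that L1 proteins move, 750, 782 and 778 CPM. Helitrons had 4.26, 2.51 and 3.06 CPM. No pair of neighbouring classes overlapped across libraries. These sums follow the number and length of copies as well as transcription: own-strand reads were listed at 203488 SINE elements in at least 1 library.

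Among SINEs, AluS, the middle-aged branch of the family, had 11554, 11068 and 10456 CPM. The older AluJ had 4480, 4226 and 4014 CPM, and the young AluY 1780, 1722 and 1624 CPM. MIR, an ancient SINE shared among mammals, had 3076, 2865 and 2718 CPM. All 4 groups were highest in replicate 1 and lowest in replicate 3. The leading subfamilies were AluJb at 1950 ± 113 CPM, AluSx at 1832 ± 95.9 CPM and AluSx1 at 1822 ± 100.2 CPM, whose ranges overlapped.

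Among LINEs, the youngest L1 branches, L1HS to L1PA6, had 2774, 2422 and 2611 CPM, and L1PA7 to L1PA17 had 1166, 1018 and 1060 CPM. L2, a LINE that has been inactive throughout primate evolution, had 1945, 1781 and 1820 CPM. L1PA3 led the subfamilies with 828, 706 and 775 CPM, of which 33.5% was unique. L2a had 658, 584 and 589 CPM with 70.5% unique. An identical pair of L1PA3 copies on unplaced contigs, described below, supplied 321, 266 and 295 CPM. In each library this was more than the lead of L1PA3 over L2a.

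Among LTR elements, the ERV1 family had 3744, 3486 and 3820 CPM, ERVL-MaLR 1881, 1700 and 1643 CPM, ERVL 961, 851 and 842 CPM, and ERVK, the family of the youngest human retroviruses, 287, 264 and 278 CPM. ERV1 was the only one of these 4 families with more counts in internal parts (1916 ± 118 CPM) than in LTRs (1767 ± 83.8 CPM), and the ranges of the 2 parts overlapped. This rested on a single HERVH-int stretch on chromosome 1, described below, without which the ERV1 internal parts had 1103, 1033 and 1132 CPM, below the LTRs in every library. In ERVL-MaLR the LTRs held 1356 ± 97.7 CPM and the internal parts 385 ± 27.6 CPM, with no overlap. HERVH-int led with 1169, 1125 and 1346 CPM, followed by LTR12C, the LTR of HERV9, with 535, 509 and 542 CPM. Among SVA branches SVA_D had 355, 374.9 and 379 CPM, and among DNA transposons Tigger1 had 226, 194 and 202 CPM.

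The large classes also differed in strand. The own-strand share was 63.5% ± 0.439 for SINEs, 59.3% ± 0.974 for LINEs, 55.9% ± 0.685 for LTR elements and 52.9% ± 0.500 for DNA transposons. With 3 libraries an exact two-sided sign-flip test against equal strands cannot go below 0.25, so no p was computed. The order of these 4 classes was the same in every library. Without the chromosome 1 HERVH-int stretch the LTR share was 52.3%, 52.4% and 53.0%, below that of DNA transposons in each library (52.4%, 53.2% and 53.3%), and the ERV1 share was 70.8% ± 1.54 in place of 75.8% ± 1.66. That setting kept an MER11B element, described below, with 303, 262 and 330.4 CPM on the opposite strand. This element lowers the LTR share. The order of LTR elements and DNA transposons without both was not computed, so the setting without the stretch alone does not settle it. Among the elements with a score of at least 90, the score being expected counts as a percent of all reads touching the element, the shares were 56.9% for SINEs, 49.4% for LINEs and 45.0% for LTR elements, so the direction for LINEs and LTR elements turned under that limit.

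Within LINEs the share ran from 80.6%, 80.1% and 83.2% for L1HS to L1PA6 down to 40.4%, 41.5% and 41.7% for L2, without overlap. L1PA7 to L1PA17 lay between, at 72.3%, 72.6% and 75.7%. The old branches L1MB and L1ME stood at 50.7% ± 0.887 and 56.2% ± 0.859. Within LTR elements, ERV1 stood at 74.5%, 75.2% and 77.7%, ERVL-MaLR at 45.2%, 45.0% and 44.3%, ERVL at 42.3%, 41.7% and 41.6%, and Gypsy-derived copies at 26.8%, 26.8% and 24.1%. The Gypsy opposite strand had 159, 154 and 158 CPM. A single element, MamGypLTR1b in COTL1, described below, supplied 111, 111 and 114 CPM of this. It lowers the Gypsy share, which was not computed without it. Within SINEs the range was narrower, from 68.6% ± 0.586 for AluY to 53.6% ± 0.619 for MIR.

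**Figure D2:**
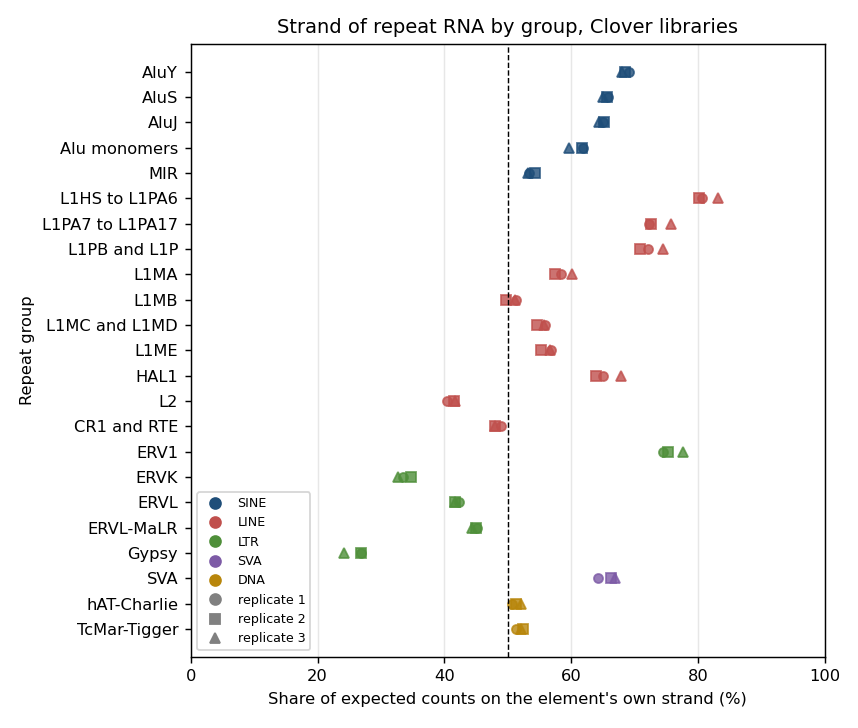
Share of expected counts on the element's own strand (%) for each repeat group, with 1 symbol per Clover library and the class in colour; the dashed line is at 50%. L1HS to L1PA6 and ERV1 lie at the right with 81.3% and 75.8% on average, and Gypsy and ERVK at the left with 25.9% and 33.6%. The Gypsy and ERVK shares are each lowered by a single opposite-strand element named in the text.

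Of 273 mobile subfamilies with at least 200 own-strand counts in every library, 195 were over 50% own strand in all 3 libraries, 67 were under 50% in all 3, and the others were on both sides. LTR21A (97.8% ± 0.300), HERVH-int (97.4% ± 0.372) and MER61E had the largest shares. SVA_E (17.1% ± 0.523), Tigger2 (23.6% ± 0.756) and THE1A had the smallest.

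Several of these extremes rested on 1 element. In SVA_E an element in an intron of HUWE1, a ubiquitin ligase gene (chrX:53577490-53579966), held 77.1%, 76.7% and 75.7% of the opposite-strand counts, and without it the own-strand share was 46.8% ± 0.679. In Tigger2 a copy in another intron of the same gene (chrX:53596194-53598785) held 82.4%, 82.1% and 82.7%, and without it the share rose to 63.7% ± 0.814. In MER61E an element on chromosome 11 (17378688-17379258) held 91.7%, 96.4% and 94.96% of the own-strand counts. Over the 273 subfamilies the highest element held a median of 12.04% of the own-strand counts, and in 16 of them it held over 50%.

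ERVK showed the same dependence through an RNA gene. Its opposite strand had 568, 497 and 573 CPM, more than its own strand. An MER11B element on chromosome 3 (chr3:15738159-15739435) supplied 303, 262 and 330.4 CPM of this, with 0.689% of its counts unique. A 7SL pseudogene, RN7SL4P (chr3:15738515-15738809), lies within that element on the strand that was read. Without the element, the ERVK opposite strand had 265, 235 and 243 CPM and the own-strand share was 52.0%, 53.0% and 53.3% in place of 33.5%, 34.7% and 32.6%.

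Divergence, the mismatches per 1000 bases from the family consensus (milliDiv), was set against strand, and the share was lower at 200 to 249 than under 50 in Alu, L1 and LTR elements. The own-strand share of Alu counts fell from 74.9%, 75.1% and 74.7% in copies under 50 to 56.9% ± 1.12 in copies of 200 to 249. For L1 it was 78.2% ± 1.94 under 50 and 80.3% ± 1.73 at 50 to 99, then 57.7% ± 1.35 at 200 to 249. Without the 100 highest elements of any class, these L1 shares were 79.3%, 74.0% and 59.1%. For LTR elements it was 71.5% ± 1.88 under 50, 76.7% ± 1.32 at 50 to 99, 53.7% ± 0.503 at 100 to 149 and 45.4% ± 0.169 at 200 to 249. Without the chromosome 1 HERVH-int stretch the LTR share at 50 to 99 was 70.3% ± 1.22. The bin of 100 to 149 holds the MER11B element with RN7SL4P (milliDiv 119), at 303, 262 and 330.4 CPM on the opposite strand. This element lowers the share of that bin, which was not computed without it. By uniquely mapping reads, which were 0.689% of that element's counts, the LTR shares at 50 to 99 and 100 to 149 were 75.7% and 59.9%. The fall did not go on in older copies, since at 300 and over L1 stood at 61.9% ± 0.413 and LTR elements at 48.1% ± 0.193. L2 had no steady course, with 34.0% at 200 to 249, 44.4% in the next bin and 39.8% at 300 and over. Bins are groups of copies and are not replicates, and the falls were present in each of the 3 libraries. With uniquely mapping reads the shares under 50 and at 200 to 249 were 73.7% and 50.8% for Alu, 78.0% and 57.3% for L1, and 70.2% and 42.7% for LTR elements. Counting each listed element once, the same shares were 64.7% and 53.2% for Alu, 58.6% and 51.4% for L1, and 52.5% and 44.8% for LTR elements, so the listing itself leaned the same way by less.

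Between the same bins the share was also lower within introns, where the strand of the host gene is known. There the own-strand share under 50 and at 200 to 249 was 70.8% and 58.8% for Alu, 69.1% and 53.4% for L1, and 59.2% and 41.1% for LTR elements. Among listed intronic elements, counting each once, the share went from 62.1% to 51.1% for Alu, about as large a fall as in the counts, and from 47.8% to 44.2% for L1, and it was 34.3% in both LTR bins. Between genes the shares were 81.4% and 54.1% for Alu, 82.9% and 53.8% for L1, and 79.4% and 55.5% for LTR elements. Exonic LTR elements showed no steady fall, with 59.0% at 50 to 99, 66.1% at 150 to 199, 36.1% at 200 to 249 and 59.9% at 300 and over. The exonic bin of 200 to 249 had at least 10785 counts per library. Of these, 1845, 1905 and 2010 were opposite-strand counts at MamGypLTR1b in COTL1 (milliDiv 200). MER77 pieces in PVR (milliDiv 206), also read on the opposite strand, lie in this bin too. Its share without these elements was not computed.

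**Figure D3:**
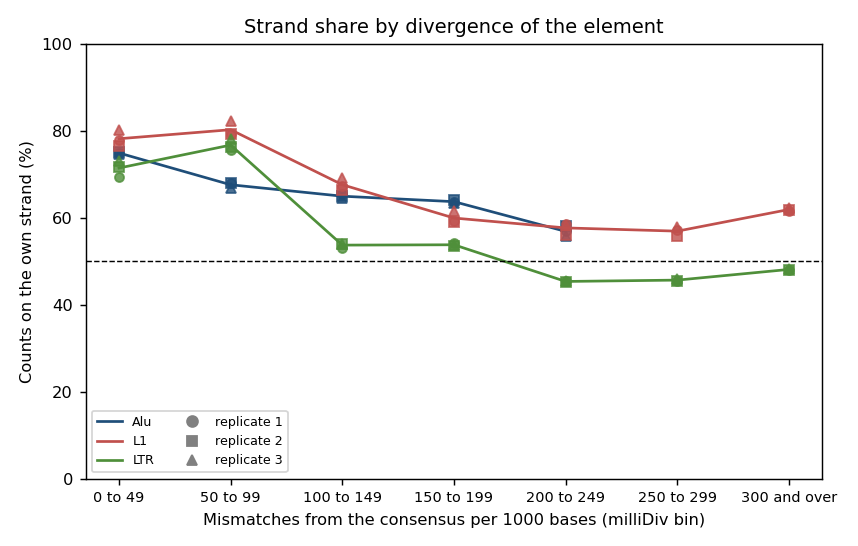
Share of counts on the own strand (%) against the divergence of the element in bins of mismatches per 1000 bases, for Alu, L1 and LTR elements; symbols are the 3 Clover libraries, lines their mean, and the dashed line is at 50%. The least diverged copies lie at 71.5% or above on average, and LTR copies of 200 or more lie below 50%.

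Young copies also held more counts than their listed number would give for LINEs and LTR elements but not for SINEs. These values were not adjusted for element length. Weighted by counts, the mean milliDiv of own-strand LINE reads was 181, 182 and 179, against 209, 206 and 209 when each listed element counted once. LTR elements had 162, 160.0 and 157 against 188, 187 and 186. SINEs had 142, 141 and 141 against 143, 140 and 141, and these ranges overlapped. LTR elements of 50 to 99 held 10.4 ± 0.722 counts per listed element and those of 300 and over held 2.98 ± 0.260. Without the chromosome 1 HERVH-int stretch the former value was 7.49 ± 0.418 and the weighted mean milliDiv of LTR elements was 168 ± 1.79. For Alu the corresponding value was lowest in the copies under 50, at 2.03 ± 0.158, against 3.52 ± 0.241 at 50 to 99. Unique reads were also fewest there among the Alu bins up to 199, at 59.6% against 70.5%, and their part in that value was not tested.

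Among single elements of any class, the genes RN7SL1, RN7SL2, RN7SK and RN7SL3 stood above the highest mobile element, which in turn stood above every U RNA copy on average. The 100 highest held 10.9%, 11.4% and 12.3% of own-strand mobile counts and the 1000 highest 24.5%, 25.1% and 26.9%. The elements below were named in order of level among those with at least 50% unique reads, a choice made after their values were seen.

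Regardless of class, the highest was an HERVH-int element on chromosome 1 (chr1:68386440-68389684, plus strand) at 499, 503.7 and 568 CPM, or 161 CPM per kilobase. It lies outside any annotated gene, and the nearest gene on the read strand is 89445 bases away. It belongs to a stretch of 6 listed HERVH-int pieces up to position 68391562, which together had 796, 774 and 909 CPM. The stretch held 68.1%, 68.8% and 67.5% of all HERVH-int counts, and the other 1058 listed pieces summed to 373, 351 and 437 CPM. An LTR7, the LTR of HERVH, adjoins the stretch (chr1:68391563-68391992) and had 38.7, 32.7 and 46.1 CPM. Replicate 3 was the highest library in each of these.

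L1 had its highest element in SLC38A1, a glutamine transporter gene. This L1PA6 (chr12:46189949-46196086, minus strand, 6138 bases) had 246, 212 and 241 CPM, 75.9% of them unique, and 37.9 CPM per kilobase. Its middle lies in an intron and an annotated 3′ UTR overlaps part of it. It held 47.0%, 46.3% and 48.4% of all own-strand L1PA6 counts. An L1PA7 between genes on chromosome 5 (chr5:85582242-85588699) had 48.3, 49.8 and 55.9 CPM, which is 7.95 CPM per kilobase.

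Among elements in 3′ UTRs and coding exons, the short SINE copies stood high per kilobase. An AluJb over the 3′ UTR and coding sequence of IRAK1, a kinase of interleukin-1 receptor signalling (chrX:154011092-154011389), had 215, 217 and 194 CPM, or 699.8 CPM per kilobase. An AluSp that overlaps the 3′ UTR of EIF3I, a subunit of translation initiation factor eIF3 (chr1:32231212-32231509), had 183, 185 and 189.6 CPM, or 623 CPM per kilobase. MIR3 in TGM2, the transglutaminase gene (chr20:38129161-38129333), had 91.0, 94.6 and 81.8 CPM, and MIRc in the amino acid transporter gene SLC7A5 (chr16:87831035-87831156) had 87.0, 85.5 and 91.3 CPM. The longer L2b in TEX261 (chr2:70985937-70987135) had 91.2, 90.9 and 107 CPM, or 80.4 CPM per kilobase. L2c in SRRM2, a nuclear speckle protein gene (chr16:2769421-2770193), had 86.4, 88.3 and 94.0 CPM, or 116 CPM per kilobase.

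Elements read on the opposite strand at a like level lay in 3′ UTRs and in introns. MamGypLTR1b in the 3′ UTR of COTL1, an actin-binding protein gene (chr16:84566247-84566381), had 111, 111 and 114 CPM, or 829 CPM per kilobase, against its own orientation. MamRTE1 in the 3′ UTR of ANPEP, the aminopeptidase N gene (chr15:89785142-89785239), had 81.4, 79.8 and 80.3 CPM. LTR67B in the 3′ UTR of OAS3, an interferon-induced oligoadenylate synthetase gene (chr12:112971074-112971451), had 63.0, 60.5 and 62.4 CPM. L2a in an intron of AXL (chr19:41252983-41253504) had 81.5, 81.8 and 74.6 CPM. The Tigger2 copy in HUWE1 named above had 86.6, 75.2 and 75.6 CPM.

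The SVA elements with the most counts lay in genes too. SVA_D in GOSR1, a Golgi SNARE gene (chr17:30522805-30524227), had 43.1, 38.8 and 47.9 CPM, and SVA_D in an intron of IARS1, the isoleucyl-tRNA synthetase gene (chr9:92226805-92228143), had 39.9, 37.6 and 40.3 CPM. The highest own-strand DNA transposon was MER117 in OAS3 (chr12:112970411-112970588), at 21.0, 20.2 and 20.1 CPM.

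**Figure D4:**
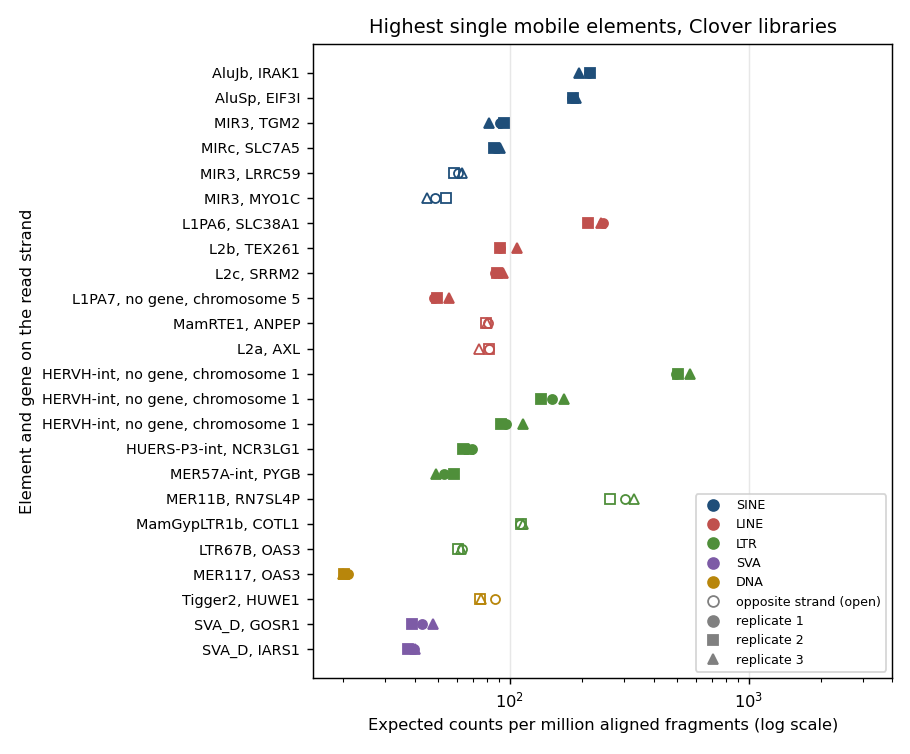
Expected counts per 1000000 aligned fragments (log scale) of the highest single mobile elements, labelled with the subfamily and the gene on the read strand; colours are classes, shapes the 3 Clover libraries, and open symbols mark reads on the opposite strand. The HERVH-int element on chromosome 1 is highest at 499 to 568, followed by MER11B, which holds RN7SL4P, at 262 to 330.4.

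Limiting the choice to elements with a score of at least 90 and 20 counts in every library gave lower loci. The highest own-strand SINE was then MIR3 in RPL12, a ribosomal protein gene (chr9:127451080-127451161), at 11.6, 9.76 and 11.4 CPM. Among LINEs it was L2b in ERCC1, a DNA repair gene (chr19:45424059-45424154), at 9.71, 11.1 and 6.17 CPM. Among LTR elements it was LTR41B in DHCR7, the last enzyme of cholesterol synthesis (chr11:71434772-71434957), at 8.75, 8.19 and 8.03 CPM. Among DNA transposons it was Tigger10 in TOMM20, a mitochondrial import receptor gene (chr1:235109785-235110109), at 7.73, 4.91 and 3.85 CPM. Of the elements more than 5 kb from a gene on the read strand, 3 passed, led by L1M5 (chr21:8994800-8995099) at 5.45, 2.75 and 4.02 CPM.

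Loci followed by the study for their retroviral RNA had few counts here. The MER4-int stretch on chromosome 14 (chr14:105033004-105039940, 4 listed elements) had 5, 0 and 4 expected counts. A count of 0 allows up to 3 counts at this depth. HERVK3-int on chromosome 16 (chr16:35517050-35524053) had 8, 10 and 11 counts, or 0.480, 0.585 and 0.622 CPM, and 6 of the 43 listed HERVK3-int elements stood higher.

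Gene context was then set against strand. On their own strand, mobile elements read within exons held 25.5%, 26.2% and 27.5% of the counts but were 7.71% ± 0.326 of the listed elements. This gave 12.9 ± 0.549 counts per listed exonic element and 2.91 ± 0.270 per intronic one. Introns held 53.1%, 53.5% and 53.1% of opposite-strand counts and 41.8%, 41.8% and 40.9% of own-strand counts. Stretches between genes held 16.1%, 15.4% and 14.4% of opposite-strand counts and 21.3%, 20.9% and 21.0% of own-strand counts.

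LTR elements had the largest share of counts between genes of the SINE, LINE, LTR and DNA classes. They had 42.4%, 42.8% and 43.6% of own-strand counts there, against 24.8%, 24.3% and 23.5% for LINEs and 13.5%, 13.2% and 12.9% for SINEs. ERV1 reached 54.7%, 55.4% and 56.4%. Listed elements, counting each once, leaned the same way, with 38.6% of LTR elements, 43.4% of ERV1, 27.9% of LINEs and 18.3% of SINEs between genes. Without the chromosome 1 HERVH-int stretch, 34.8% ± 0.172 of LTR counts and 42.6% ± 0.173 of ERV1 counts lay there, below the listed shares. DNA transposons had 36.2%, 36.7% and 39.0% in exons, and L1HS to L1PA6 had 1.07%, 0.862% and 1.22% there.

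The strand share depended on context. LTR elements read within introns were 38.4%, 38.7% and 38.8% own strand, and those between genes were 69.8%, 71.0% and 72.9%, or 62.8%, 63.7% and 64.9% without the chromosome 1 HERVH-int stretch. The MER11B element that holds RN7SL4P was counted as intronic, with 303, 262 and 330.4 CPM on the opposite strand. It lowers the intronic LTR share, which was not computed without it. LINEs were 53.3%, 52.2% and 54.2% own strand in introns and 66.6%, 67.3% and 70.7% between genes. SINEs varied less, with 60.6% ± 0.638 in introns and 65.1% ± 0.0796 between genes. DNA transposons were 48.7% ± 0.760 in introns and 54.8% ± 1.30 between genes. Listed intronic LTR elements, each counted once, were 35.5% own strand, and it is known that LTR insertions in introns lie more often against the gene than along it.

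By host gene, the repeats of SLC38A1 summed to 269.6, 232 and 262 CPM on the gene's strand, those of SRRM2 to 219, 225 and 227 CPM and those of IRAK1 to 227, 227 and 208 CPM. In SRRM2, 99.5% of this came from exonic elements, and in SLC38A1 5.16%. HUWE1 had 172, 161 and 158 CPM over 124 elements, of which 1.57% was exonic. NEAT1, the nuclear RNA that scaffolds paraspeckles, had 64.9, 58.1 and 51.7 CPM, and MALAT1 had 5.40, 2.16 and 3.11 CPM from 2 listed elements.

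Base content on the read strand was set beside the counts because 4sU is taken up in place of uridine. Weighted by counts, T made up 19.9% ± 0.0287 of the sequence of own-strand SINEs, against 20.1% over listed elements. For LINEs it was 23.6% ± 0.104 against 25.5%, for LTR elements 25.9% ± 0.0663 against 27.0%, and for DNA transposons 27.7% ± 0.136 against 28.9%. The counted elements were thus no richer in T than the listed ones in these 4 classes. Base content was that of whole elements and not of the reads, and an effect of 4sU uptake on the counts was not tested.

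The libraries were alike in sums and less so in single copies. Across 282 subfamilies, the Pearson correlation of log2 levels was 0.994 to 0.997 over the 3 pairs of libraries. Across 7751 own-strand mobile elements with a mean of 10 or more counts it was 0.896 to 0.916, and Spearman's rho was 0.678 to 0.742. Elements and subfamilies within a library are not independent, so no p is given. The biological coefficient of variation from edgeR was 15.2% over 5141 elements that passed its filter and 6.87% over 814 subfamilies. By class it was 14.5% for SINEs, 16.2% for LINEs, 14.8% for LTR elements and 13.7% for DNA transposons. For gene copies of structured RNAs it was 65.0% over 57 copies.

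Most listed elements were seen in only some libraries. Of 372107 mobile elements with own-strand reads in at least 1 library, 13.2% were listed in all 3, and those held 64.9%, 67.4% and 68.1% of the counts. Elements with at least 10 counts in a library were listed in another in 98.1% to 99.2% of cases. Of the 100 highest elements in a library, 88 to 91 were among the 100 highest in another. Each pair of libraries differed by more than sampling noise on unique reads, with a chi-square per degree of freedom of 1.85 to 2.40, so none was taken for a second deposit of another. PCR copies of a read also raise this value, and it does not show that the libraries came from separate cultures.

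Copies with almost no uniquely mapping reads carried most of the largest differences between libraries. The U1 genes show this, and the highest pair is printed with the 1 base that differs in capitals (C150T, counted from 1 at the 5′ end, RNVU1-7 first).

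RNVU1-7 (chr1:148038753-148038916, minus strand): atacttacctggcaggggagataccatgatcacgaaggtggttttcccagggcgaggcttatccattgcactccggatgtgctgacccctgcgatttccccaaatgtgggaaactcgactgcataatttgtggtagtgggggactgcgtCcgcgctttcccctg

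RNU1-2 (chr1:16895980-16896143, plus strand): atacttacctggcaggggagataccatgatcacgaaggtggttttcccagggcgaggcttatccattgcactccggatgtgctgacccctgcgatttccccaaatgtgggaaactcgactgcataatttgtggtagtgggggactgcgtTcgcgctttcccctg

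RNVU1-7 had 11.5, 437 and 242 CPM and RNU1-2 had 299.7, 6.69 and 177 CPM. Their sum was 311, 444 and 419 CPM. These copies are not identical, since RNU1-2 has T at the base where RNVU1-7 has C. The paper attributes T-to-C transitions in reads to UV crosslinking of the labelled RNA. Whether such transitions moved reads between these copies was not tested. Of the 17 listed U1 copies of full length, 9 had the sequence of RNU1-2 and 1 that of RNVU1-7. RNVU1-29 (chr1:146376807-146376970), identical to RNU1-2, had 0.266, 146 and 1.43 CPM, and RNU1-28P (chr14:34556226-34556389), also identical, had 172, 6.04 and 3.69 CPM. The whole of U1 differed 1.46-fold between its highest and lowest library.

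L1PA3 held an identical pair on unplaced contigs. The copies at chrUn_KI270751v1:58558-64694 and chrUn_GL000214v1:39519-45655 are 6137 bases long with 0 differences. They had 74.1, 216 and 234 CPM and 247, 50.03 and 61.0 CPM. Their sum was 321, 266 and 295 CPM, so the copies changed order between libraries while the sum differed 1.21-fold.

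Unique mapping went with this spread over all elements. Of 1184 own-strand elements with a mean of at least 50 counts, 69 had less than 10% unique reads, and in 42.0% of these the highest library was at least 2 times the lowest or a library was at 0. The share was 10.9% of 55 elements with 10 to 50% unique reads and 1.79% of 1060 elements with 50% or more. Their median mean counts were 224, 102 and 83.6, so the elements with the widest spread were not those with the fewest counts.

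**Figure D5:**
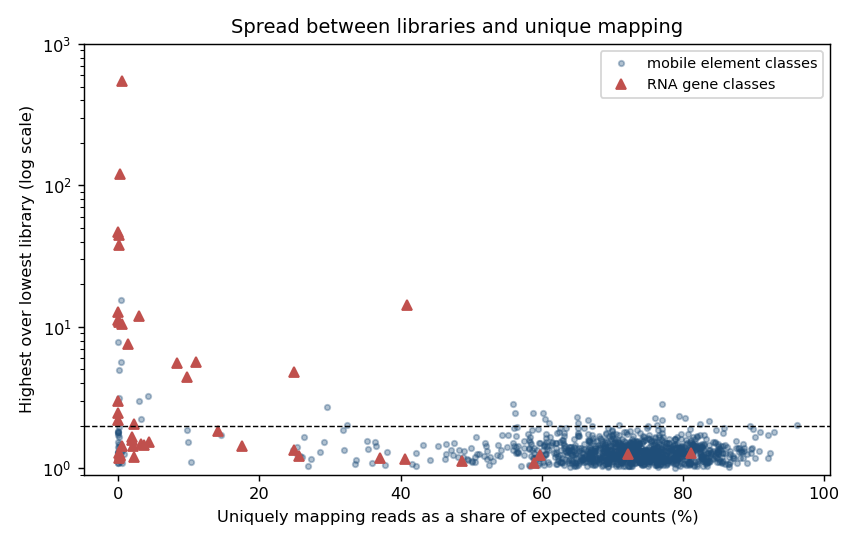
Ratio of the highest to the lowest Clover library (log scale) against the share of uniquely mapping reads (%) for own-strand elements with a mean of at least 50 expected counts, leaving out 4 listed at 0 in a library; triangles are RNA gene classes and the dashed line is at 2. Ratios up to 551 lie near 0% unique, and few elements over 50% unique pass 2.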

How the data were processed

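Counts were those the authors deposited for each repeat, made with SQuIRE: expected counts, in which multimapping reads are shared among copies by expectation maximization, uniquely mapping read counts, and the aligned fragment count. The deposited FPKM, the deposited score (expected counts as a percent of all reads touching the element) and milliDiv, another deposited column, came with each repeat. Reads had been trimmed with cutadapt 4.6 and aligned to hg38 per the submitters' processing notes, and the SQuIRE version is not given in the sources used here. Expected counts were scaled to 1000000 aligned fragments. A repeat was own strand where its read strand matched its annotated strand. It was exonic where at least 50% of it lay in GENCODE 44 exons of the read strand, otherwise its middle decided.

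The labels alone gave the group, and no groups were compared, so no test was run. Values are mean ± SD over 3 libraries. Wilson 95% intervals cover counting error only, since no molecular identifiers were used. Named loci had a mean score of at least 90 and 20 counts in each library. The highest elements of any score were added after their values were seen. The members and lists were chosen with earlier results of these data known. Dispersion came from edgeR 4.0.16 on rounded expected counts, tested on simulated data, with DESeq2 1.42.0 size factors as an alternative. Python 3.11.15, pandas 2.3.3, pysam 0.24.0 and bedtools 2.31.1 were used. Some sequences are not reported here.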

Additional observations from a re-analysis of the deposited data

How the results depend on the processing

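With uniquely mapping reads alone the SINE, LINE, LTR and 7SL levels were 14335, 6410, 4342 and 6895 CPM. Reads on either strand gave 31899, 16556 and 11928.5 CPM for SINE, LINE and LTR. Per 1000000 repeat counts in place of aligned fragments the 4 levels were 346243, 167617, 113861 and 208974. Elements with at least 10 counts summed over the libraries gave 11568, 6212 and 4813 CPM for SINE, LINE and LTR, and a score of at least 90 gave 5271, 2099, 1124 and, for 7SL, 4.77 CPM. The own-strand shares with at least 10 counts were 69.2%, 65.2% and 61.4% for SINE, LINE and LTR, with a score of at least 90 they were 56.9%, 49.4% and 45.0%, and without the 100 highest elements 62.6%, 58.1% and 53.1%. Unique reads gave 58.1% for LINE. Mean milliDiv for SINE and LINE was 143.4 and 192.3 by unique reads. For SINE, LINE and LTR it was 147.4, 203.7 and 172.5 on either strand and 140.4, 163.2 and 148.1 with at least 10 counts. The 100 highest elements held 8.52% of mobile counts on either strand. Exons held 28.3% by unique reads and 30.4% where 1 overlapping base sufficed, and introns 42.1% and 38.2%. Dispersion was 13.996% by unique reads and 56.8% with no filter. Of 55 alternatives, 12 stayed within 1 SD of the reported value.

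Leaving out each library in turn gave 19735 to 20801 CPM for SINE, 9386 to 10111 for LINE, 6514 to 6804 for LTR and 11750 to 12821 for 7SL. Own-strand shares ran from 63.4 to 63.8%, 58.8 to 59.7% and 55.5 to 56.1%, and mean milliDiv from 141.3 to 141.8, 180.4 to 181.8 and 158.5 to 160.8, in the same order of classes. The 100 highest elements held 11.2 to 11.9%, exons 25.8 to 26.8%, introns 41.3 to 41.8%, and dispersion was 13.7 to 15.8%. No paired analysis was possible because only 1 group was used. Without the HERVH-int stretch the LTR level was 5835 CPM. The settings without 1 element for ERVK, SVA_E and Tigger2 and without the HERVH-int stretch were chosen after seeing the data. Single elements rest on few reads: 13.2% of listed mobile elements appeared in all 3 libraries. Where copies are identical, the split among them is not measured by these reads, and only their sum can be read.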
